A study of Mus musculus with 12 samples.

Results

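Polyamine synthesis and its control by antizymes were followed through 8 genes in the aging mouse testis. The genes are Odc1, Amd1 and Srm, which encode enzymes of synthesis, Oaz1, Oaz2 and Oaz3, which encode the antizymes, and Azin1 and Azin2, which encode the antizyme inhibitors. Members were the rows of the transcript table that carry 1 of these symbols and a class code of =, c, j or o, that is, transcripts that match a reference transcript, are contained in one, share a splice junction with one or overlap its exons. This gave 26 of the 71967 transcripts in the table, and their values were summed to 8 of the 24516 genes with such transcripts. Total RNA depleted of ribosomal RNA was sequenced from whole testes of 12 male C57BL/6 mice, an inbred laboratory strain, labelled wild type, with 1 library per mouse and 3 mice per age, namely 3 (3M), 6 (6M), 12 (12M) and 18 (18M) months. The mice differ by no other treatment or allele in the labels. The comparison across the ages asks whether RNA of these genes differs as the testis ages.

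The polyamines putrescine, spermidine and spermine are small cations that bind nucleic acids and are needed for cell growth and for sperm formation. Ornithine decarboxylase (Odc1) makes putrescine and is the first and rate-limiting enzyme, S-adenosylmethionine decarboxylase (Amd1) supplies the aminopropyl groups, and spermidine synthase (Srm) joins such a group to putrescine. Antizymes bind ornithine decarboxylase and hold back polyamine uptake, and some but not all of them send the enzyme to the proteasome. Antizyme inhibitors, which resemble the decarboxylase but do not decarboxylate ornithine, release the enzyme again. Oaz1 and Oaz2 are made in most tissues, Oaz3 is the antizyme of spermatids, and Azin2 is known mainly from testis and brain.

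Antizyme RNAs share a device that sets them apart from the other members. Their reading frame meets a stop codon early, and a ribosome makes antizyme only when it skips 1 base there, which polyamines favor. The 63 bases around this stop codon are shown for the 3 antizymes, because the making of antizyme depends on this site. They are from the GENCODE vM21 transcripts on mm10, read along the coding strand with the stop codon in capitals.

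Oaz1: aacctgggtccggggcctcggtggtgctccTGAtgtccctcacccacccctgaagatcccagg
Oaz2: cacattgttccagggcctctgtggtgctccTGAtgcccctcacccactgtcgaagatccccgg
Oaz3: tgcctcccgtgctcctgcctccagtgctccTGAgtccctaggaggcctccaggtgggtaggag

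The windows lie at chr10:80828265-80828327 on the plus strand, chr9:65686242-65686304 on the plus strand and chr3:94436002-94436064 on the minus strand. All 3 hold the codon TCC before the stop codon TGA. The frame before the site is 68 codons long in Oaz1, 32 in Oaz2 and 86 in Oaz3, and the frame after it is 159, 157 and 157 codons long. The annotated frame of Oaz3 opens with CTG, whereas those of Oaz1 and Oaz2 open with ATG. The site of Oaz3 lies in the exon chr3:94435956-94436125, which all 10 Oaz3 transcripts of the table share.

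The deposited counts sum to 50924104 to 71803379 reads per library, and the correlation of log2(CPM + 1) over genes, where CPM is a count scaled to a common library size, was 0.987 to 0.990 between mice of the same age. No library held the values of another. Spermatid markers had high levels (protamine Prm2 had a mean of 8272 FPKM), those of spermatogonia ranged from Zbtb16 at 0.544 to Uchl1 at 29.6 FPKM, and of the epididymis markers Lcn5, Lcn8 and Crisp1 had means of 0, 0.0121 and 0.0987 FPKM and Rnase10 of 2.41. FPKM is the number of fragments scaled by transcript length and by library depth, so that levels of different genes can be set side by side. The libraries hold no strand information, and in whole testis RNA fewer cells of a type and less RNA per cell cannot be told apart. Library 12M mouse 3 stood at the edge of the 12 for the elongating spermatid markers (summed 23019 CPM, against 16354 to 20804 in the other 11 libraries), and values that rest on it are also given without it. Library 6M mouse 3 had the highest sums of Leydig (1271 CPM, others 522 to 1007), Sertoli (147, others 110 to 120) and macrophage markers (23.5, others 12.3 to 17.8). It also had the highest Srm value (4.42 FPKM), and it was left out only in the fits that left out 1 library each.

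Oaz3 stood far above the other members in level. Oaz3 had a mean of 1301 FPKM over the 12 libraries (SD 160), rank 11 among the 24516 genes, and took 0.172% of all reads. Odc1 followed with 166 FPKM (SD 9.64), Azin2 with 129 (SD 7.38) and Oaz2 with 69.5 (SD 2.12). Azin1 had 21.5 FPKM (SD 0.577) and Srm 3.63 (SD 0.365). The symbol Oaz1 had 3.42 FPKM (SD 0.430) and the symbol Amd1 0.0873 (SD 0.122), but most reads at the loci of these genes are filed under other names.

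Oaz1 and Amd1 each have a near-identical copy, and the table places the RefSeq record of the copy at the locus of the gene itself. The record NR_027656 of the pseudogene Oaz1-ps is placed at chr10:80826696-80829217, within Oaz1 (chr10:80826656-80829290), while GENCODE places the processed pseudogene Oaz1-ps at chr17:17345456-17346140. The annotated Oaz1-ps matches the Oaz1 transcript in 684 of 685 aligned bases (99.9%). At the Oaz1 locus, 92.9% to 95% of the reads were filed under Oaz1-ps and 5.0% to 7.10% under Oaz1. Exon 1 of the Oaz1 transcripts had a coverage of 49.8 to 93.5 reads per base and exon 5 of 2.42 to 6.00, whereas the Oaz1-ps record had 294 to 452 and 223 to 389 at the same exons.

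The record NM_007444 of Amd2 is likewise placed over the Amd1 locus, at chr10:40287465-40302186, while GENCODE places Amd2 at chr10:35708675-35711892. Amd1 and Amd2 match in 3188 of 3202 aligned columns (99.6%), with 10 mismatches and 4 gap columns. Of the reads at this locus, 96.9% or more were filed under Amd2 in each library. The Amd1 transcript itself had 1 read in 7 libraries and 21 to 83 reads in the other 5, and its exons other than the first had a coverage of at most 4.24. For both genes the sum over the locus is therefore given beside the symbol. Reads of so similar a copy can hardly be told from those of the gene, so a locus sum may hold reads of the copy. The part of such reads was not tested. The Oaz1 locus had 66.3 FPKM (SD 3.29), about the level of Oaz2, and the Amd1 locus 14.1 FPKM (SD 0.838).

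**Figure D1:**
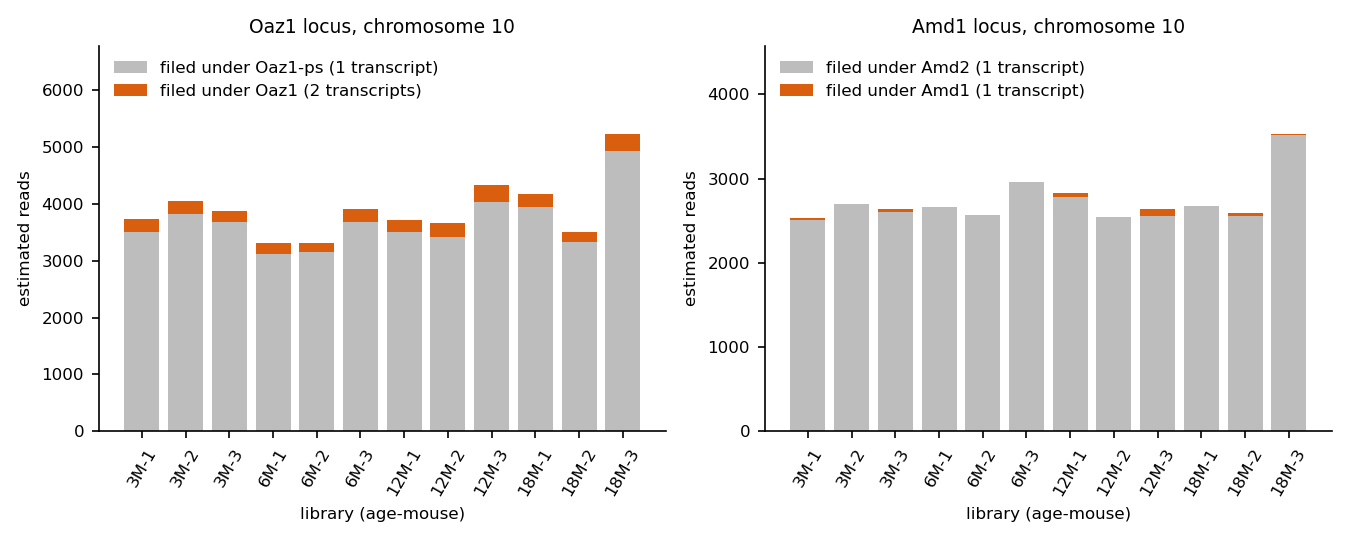
Estimated reads at the Oaz1 locus (left) and the Amd1 locus (right) in the 12 libraries, stacked by the gene name under which the table files them. The Oaz1 name holds 5.0% to 7.10% of the reads of its locus, and the Amd1 name holds 3.15% or less of the reads of its locus.

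With the loci in place of the symbols, the order of levels was Oaz3, Odc1, Azin2, Oaz2, Oaz1 locus, Azin1, Amd1 locus and Srm. Each gene stood above its lower neighbor in all 12 libraries, except that Oaz2 stood above the Oaz1 locus in 10. The ranges of Odc1 (140 to 175 FPKM) and Azin2 (120 to 144 FPKM) overlapped, as did those of Oaz2 and the Oaz1 locus, and no other neighbors overlapped.

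Ornithine decarboxylase RNA was not called in any test. Odc1 (chr12:17544873-17551502) is represented by 1 transcript, NM_013614, which had 175, 162 and 175 FPKM in the 3 mice at 3M, 170, 172 and 168 at 6M, 162, 171 and 140 at 12M, and 172, 163 and 162 at 18M. All 4 ages overlapped, and the lowest value, 140, belonged to 12M mouse 3. The log2 fold change from 3M to 18M was -0.04 ± 0.05 (SE), with an adjusted p of 0.753 in edgeR's quasi-likelihood test. The slope on age was -0.0044 log2 units per month with all libraries and -0.0027 without 12M mouse 3.

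The other enzymes of synthesis, Srm and Amd1, were far lower in RNA than Odc1, and no test called them. Srm (chr4:148591513-148594619) had age means of 3.51, 3.69, 3.6 and 3.74 FPKM at 3M, 6M, 12M and 18M, with SDs of 0.235, 0.691, 0.257 and 0.292. The widest spread lay at 6M, where the 3 mice had 3.05, 3.58 and 4.42 FPKM. Its log2 fold change from 3M to 18M was 0.10 ± 0.11 (SE, edgeR adjusted p = 0.751). The Amd1 locus had 14.1, 13.9 and 13.3 FPKM at 3M, 15.3, 14.9 and 15.5 at 6M, 13.9, 13.7 and 12.4 at 12M, and 13.8, 14.3 and 14.3 at 18M. The 6M mice stood above the 9 others, and how often other features split in this way was not counted. EdgeR's test of any difference among the ages gave an adjusted p of 0.533 for the locus (unadjusted p = 0.046). The symbol Amd1 alone lay at or under 3 reads in 7 libraries and gives no usable fold change.

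The antizymes of most tissues, which bind ornithine decarboxylase wherever it is made, had overlapping values at all 4 ages. The Oaz1 locus had age means of 67.6, 64.6, 64.2 and 68.7 FPKM, with SDs of 2.29, 2.41, 3.36 and 3.92, and, summed by gene identifier, a log2 fold change from 3M to 18M of 0.02 ± 0.06 (SE, edgeR adjusted p = 0.883). Under its own symbol Oaz1 had 3.38, 3.25, 3.72 and 3.35 FPKM and a log2 fold change of -0.01 ± 0.14 (SE, adjusted p = 0.977). Oaz2 (chr9:65676548-65690300) had age means of 69.5, 68.5, 69.4 and 70.6 FPKM, with SDs of 1.17, 1.95, 3.25 and 2.36, and a log2 fold change of 0.03 ± 0.04 (SE, adjusted p = 0.840).

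Spermatid antizyme RNA was higher in the older mice, but the difference did not pass the test across all genes. Oaz3 had 1210, 1133 and 1175 FPKM at 3M and 1202, 1150 and 1187 at 6M, against 1358, 1248 and 1623 at 12M and 1388, 1411 and 1531 at 18M. In FPKM each of the 6 libraries of 12M and 18M stood above each of the 6 of 3M and 6M, and the highest value, 1623, belonged to 12M mouse 3. The share of all features with such a separation was not computed. In reads this separation was lost, with 1520 to 1674 CPM over the 6 younger mice, 1732, 1639 and 2104 CPM in the 12M mice and 1711, 1815 and 1884 in the 18M mice. The 12M mouse at 1639 CPM lay within the younger range, and summed FPKM also depends on how reads are divided among Oaz3 transcripts of unequal length. The longest of these, MSTRG.13126.7 at 2854 nt, was assigned 8.93% to 18.1% of the Oaz3 reads in the younger mice. In the older mice it was assigned 0.0332% to 0.0764%. The part of this division in the FPKM difference was not tested. The slope of the reads summed over Oaz3 was 0.0129 ± 0.0049 log2 units per month (SE, edgeR unadjusted p = 0.021, adjusted p = 0.251), and the log2 fold change from 3M to 18M was 0.18 ± 0.06 (adjusted p = 0.361). Without 12M mouse 3 the slope was 0.0113 per month, with an unadjusted p of 0.00116 and an edgeR adjusted p of 0.117. Over the fits that left out 1 library each, the slope of the gene was 0.0111 to 0.0162 per month. The edgeR p over these fits was 0.00116 to 0.0566 unadjusted and 0.117 to 0.475 adjusted, the lowest being those without 12M mouse 3. The RefSeq record alone, which was assigned 2.21% to 13.3% of the Oaz3 reads, had 124 FPKM and a slope of -0.0130 per month (edgeR adjusted p = 0.982).

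Antizyme inhibitor 2 RNA had the smallest unadjusted p of the 8 genes for the slope on age. Azin2 (chr4:128930233-128962455) had 122, 120 and 127 FPKM at 3M, 122, 124 and 125 at 6M, 128, 127 and 130 at 12M, and 144, 133 and 140 at 18M. The 3 mice at 18M stood above the 9 younger mice, a split whose share over all features was not computed. The slope was 0.0120 ± 0.0024 log2 units per month (SE, edgeR unadjusted p = 0.000237), which missed the threshold after adjustment over all 25204 features tested (adjusted p = 0.0758). DESeq2, run as the alternative, called the slope at an adjusted p of 0.00220 and the difference among the ages at 0.0186, where edgeR gave an adjusted p of 0.339. The log2 fold change from 3M to 18M was 0.18 ± 0.05 (SE, edgeR adjusted p = 0.353). Over the fits that left out 1 library each, the adjusted p of the slope was 0.0553 to 0.227.

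Azin1 (chr15:38487430-38522138), the inhibitor made in most tissues, had age means of 21.0, 21.5, 21.6 and 21.8 FPKM with SDs of 0.561, 0.569, 0.725 and 0.383. Its log2 fold change from 3M to 18M was 0.05 ± 0.04 (SE, edgeR adjusted p = 0.605), and the 3M and 18M mice overlapped.

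**Figure D2:**
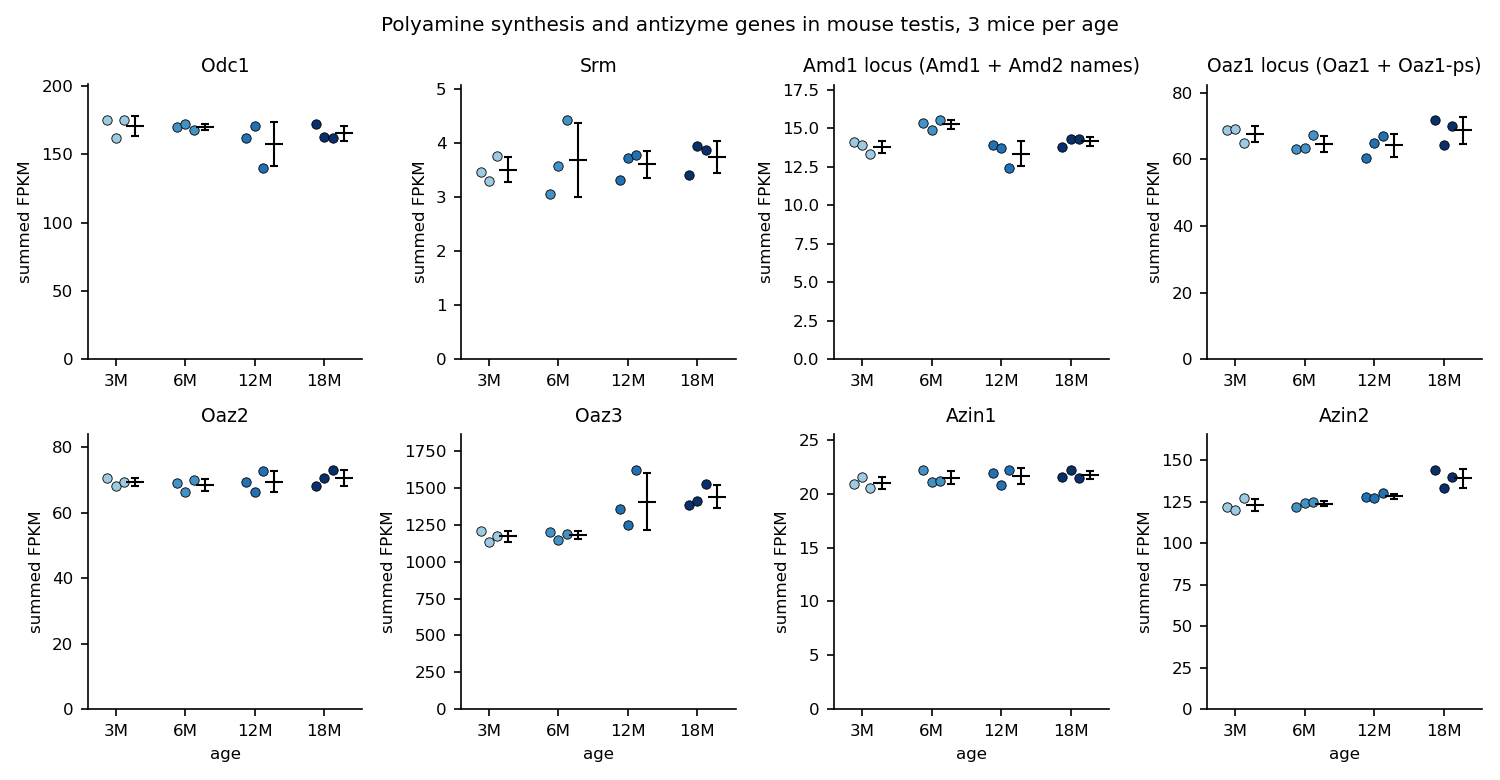
Summed FPKM of each gene by age, with 1 point per mouse and the mean ± SD of the 3 mice to the right of the points; every axis starts at 0. Oaz3 at 12M and 18M (1248 to 1623 FPKM) lies above 3M and 6M (1133 to 1210) in FPKM but not in reads, where 12M mouse 2 (1639 CPM) lies among the younger mice (1520 to 1674), Azin2 at 18M (133 to 144) lies above the younger mice (120 to 130), and the other panels show overlapping ages or, for the Amd1 locus, a 6M group above the rest.

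Set against all features, the members did not stand out by the number of calls. EdgeR called 0 of the 8 genes for the slope on age, where it called 43 of 25204 features (0.171%), 0 for any difference among the ages (0.0794% of features called) and 0 between 3M and 18M (0.0528%). A call needed an adjusted p of 0.05 or less and, between 3M and 18M, also a log2 fold change whose size reached 1, as the study asked. At an unadjusted p of 0.05 or less, Azin2 and Oaz3 had a rising slope, beside 7.16% of all features, and the same 2 genes were higher at 18M than at 3M, beside 5.69%. They were also the 2 members whose 3M and 18M mice did not overlap, beside 19.6% of all features. For any difference among the ages the unadjusted edgeR p was 0.05 or less for Azin2 (0.00269, adjusted p = 0.339), beside 9.04% of features. The same held for the Amd1 locus (0.046, adjusted p = 0.533) though not for the symbol. For Oaz3 this p was 0.0947 (adjusted p = 0.604) with all 12 libraries. With 1 library left out it was 0.0182 to 0.196 for Oaz3, the lowest without 12M mouse 3 (adjusted p = 0.389). DESeq2 called Azin2 for the slope and for any difference among the ages, and no member between 3M and 18M. Of the 7 member genes with a mean of 1 FPKM or more at some age, Oaz3, Azin1 and Azin2 had means that were higher at every step from 3M to 18M, a pattern found in 6.34% of genes at that level, and none had means that were lower at every step (8.53%). In CPM the same held for Azin1 and Azin2, whereas the Oaz3 means were 1601, 1641, 1825 and 1803, lower at 18M than at 12M.

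Markers of round spermatids had higher sums in the older mice, as Oaz3 and Azin2 had. Of 6 such markers, 4 had a rising slope at an unadjusted p of 0.05 or less and 0 were called by edgeR after adjustment, where DESeq2 called 4 for the slope (Acrv1, Izumo1, Spaca1 and Tssk6). Their summed level was 897 to 970 CPM in the 3M mice and 957 to 979 in the 6M mice, against 1018 to 1130 (12M) and 1069 to 1097 (18M) in the older ones, and no marker was at 0 reads. The 7 markers of elongating spermatids had sums of 17037 to 18834 CPM at 3M and 17814 to 20804 at 18M, with 1 of 7 rising at an unadjusted p of 0.05 or less and 0 called. Markers of Leydig cells, the steroid-making cells between the tubules, summed to 840 to 1007 CPM at 3M and 522 to 708 at 18M, and Cyp17a1 and Cyp11a1 of the 6 were called for a falling slope by edgeR (adjusted p = 0.000125 and 0.0053). The sums at 3M and 18M overlapped for spermatogonia (98.2 to 105 and 96.2 to 98.8 CPM), Sertoli cells (111 to 120 and 111 to 117), for spermatocytes (1031 to 1085 and 1022 to 1032), and also for macrophages (15.9 to 17.4 and 12.3 to 17.4), peritubular and endothelial cells (65.7 to 79.5 and 50.1 to 67.4), epididymis (3.82 to 4.30 and 3.91 to 4.82) and red blood cells (14.0 to 23.7 and 9.32 to 34.0). The part of these cell types in the values of Oaz3 and Azin2 was not tested.

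At the level of transcripts, 1 of the 26 was called between 3M and 18M, and it belongs to Oaz3. Oaz3 has 10 transcripts in the table, the RefSeq record NM_016901 and 9 assembled by StringTie. The record NM_016901 took 2.21% to 13.3% of the Oaz3 reads. MSTRG.13126.1 took 22.6% to 44.5%, MSTRG.13126.2 took 12.4% to 32.4% and MSTRG.13126.3 took 0% to 23.4%. MSTRG.13126.4 had 0.00108% to 25.7%, with 1 to 6 reads in 5 libraries and 7312 to 21452 in the other 7. Isoform shares thus varied widely between mice of the same age.

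MSTRG.13126.7 is the transcript that was called. It had 15437, 8093 and 14110 reads at 3M and 8220, 14895 and 8379 at 6M, against 63, 67 and 59 at 12M and 48, 53 and 45 at 18M. Its share of the Oaz3 reads was 14.1% ± 4.25 (SD) at 3M and 12.3% ± 5.05 at 6M, and 0.0608% ± 0.0161 at 12M and 0.0460% ± 0.0114 at 18M. The ages divide into 2 blocks with no overlap. Of all transcripts tested between 3M and 18M, 13.6% had libraries of these 2 ages that did not overlap. The log2 fold change of MSTRG.13126.7 from 3M to 18M was -8.11 ± 0.43 (SE, edgeR adjusted p = 0.0214), in a test that called 59 of 54472 transcripts (0.108%). The call was lost on leaving out any of 5 of the 6 libraries (adjusted p = 0.0337 to 0.0840 over the 6). For the slope on age edgeR gave an adjusted p of 0.127 and called 0 members (0.0103% of transcripts called), and DESeq2 called MSTRG.13126.7 and NM_172875.

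The exon of MSTRG.13126.7 outside the shared ones did not follow its read count. All 10 transcripts share the exons chr3:94433388-94433640, chr3:94434464-94434549, chr3:94434971-94435146 and chr3:94435956-94436125, and 9 of them share chr3:94436388-94436637. The coverage of these 5 exons, summed over the transcripts, was 5270 to 23328 reads per base. What sets MSTRG.13126.7 apart is its first exon, chr3:94436999-94438917, of 1919 nt, although 434 nt of it also form an exon of MSTRG.13126.6. In order of age, that exon had a mean coverage of 2.26, 2.55, 2.49 and 2.32 reads per base, with SDs of 0.10, 0.737, 0.182 and 0.207 (n = 3 each). Its coverage at 12M and 18M lay within the range of the 3M and 6M mice (1.72 to 3.13), while the coverage assigned to the same transcript on the shared exons was 1527 ± 502 (SD) at 3M and 1266 ± 456 at 6M, against 1.87 ± 0.0551 for 12M and 0.530 ± 0.918 for 18M.

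The other 8 assembled Oaz3 transcripts also have 1 or 2 exons outside the shared ones, between positions 94437097 and 94455201 of chromosome 3, with a mean coverage per transcript of at most 5.35 reads per base in any library and medians between 0.495 and 3.19. Some of these exons overlap each other. MSTRG.13126.5 and MSTRG.13126.9 both hold chr3:94444513-94444690, and those of MSTRG.13126.1, MSTRG.13126.2 and MSTRG.13126.3 end at the same base. Few reads therefore separate the Oaz3 transcripts, and the sum of reads over the gene, which the gene tests use, does not depend on how they were divided. The summed FPKM of Oaz3 does depend on it, because the transcripts are listed with lengths of 949 to 2854 nt. Tdrkh (chr3:94413273-94434668) and Mrpl9 (chr3:94443318-94451130) are annotated on the opposite strand across parts of the Oaz3 exons, and without strand information their reads and those of Oaz3 cannot be told apart there.

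**Figure D3:**
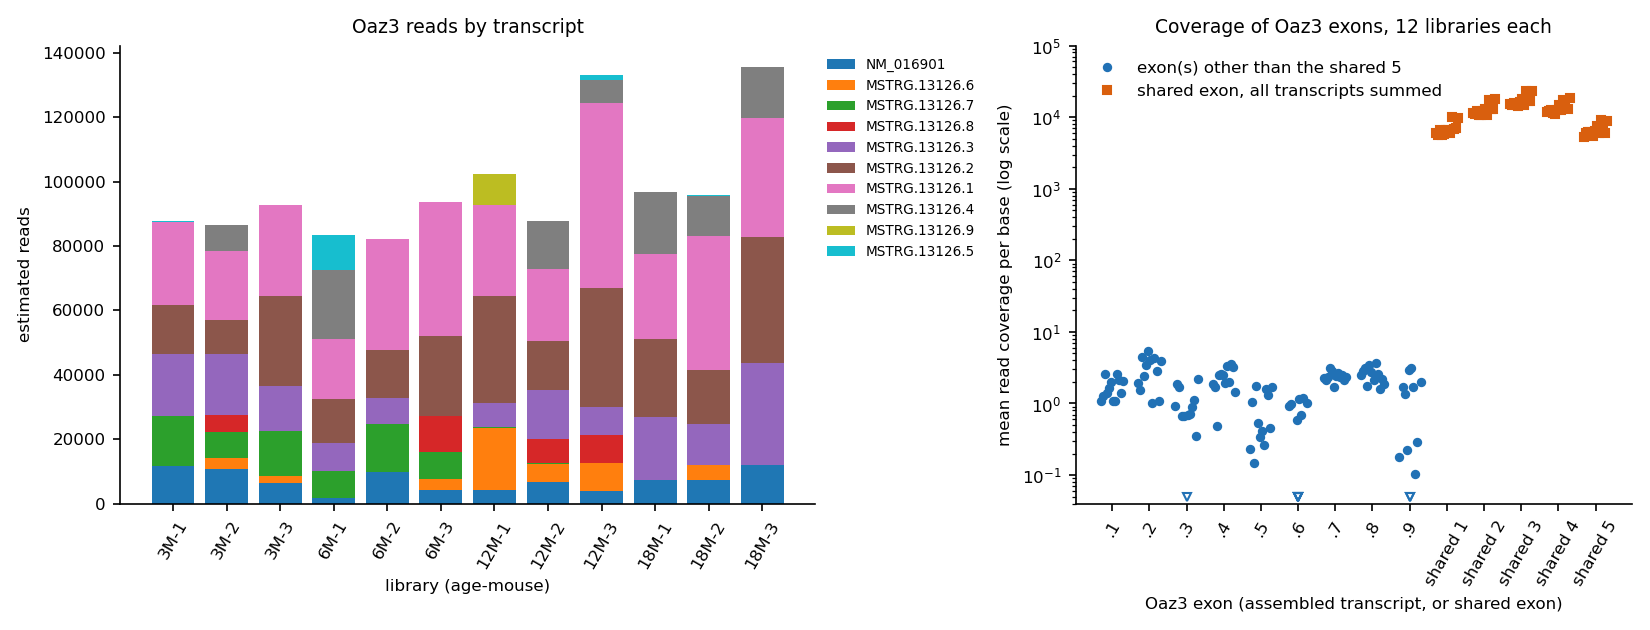
Left, estimated reads of Oaz3 in each library, stacked by transcript; right, mean read coverage per base of the exons of each assembled transcript other than the shared ones (circles, named by the last part of MSTRG.13126.1 to MSTRG.13126.9) and of the 5 shared exons (squares), on a log scale, with 1 point per library and open triangles for a listed coverage of 0. MSTRG.13126.7 holds 8093 to 15437 reads at 3M and 6M and 45 to 67 at 12M and 18M, while the exons outside the shared ones stay at or below 5.35 and shared exons lie between 5270 and 23328.

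Azin1, Azin2, Oaz1 and Oaz2 also have several transcripts each. Azin2 was almost wholly NM_172875, with 99.3% to 99.8% of its reads. NM_172875 had a slope of 0.0121 ± 0.0024 log2 units per month (SE, edgeR unadjusted p = 0.00034, adjusted p = 0.335). Oaz2 divided between NM_010952 (88.7% to 91.5%) and NM_001301307 (8.51% to 11.3%), which are listed with lengths of 1844 and 1841 nt. The reads under the Oaz1 symbol divided between NM_008753 (45.4% to 84.4%) and NM_001301034 (15.6% to 54.6%), on 173 to 308 reads in all.

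Azin1 had 7 transcripts. NM_018745 took 52.1% to 57.0% of its reads, NM_001102458 took 14.8% to 21.8% and the non-coding record NR_125913 took 11% to 16.5%. The share of NM_018745 was 56.4%, 54.5%, 54.6% and 53.2% in order of age, with SDs of 0.704, 0.726, 2.21 and 0.784 percentage points. MSTRG.6990.1 had 554 to 1014 reads in 11 libraries and 46 in 3M mouse 3, the library in which MSTRG.6990.7 had 653 reads against 0 to 35 elsewhere.

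Shares of the 14 transcripts with a mean of 5% or more of a gene with several such transcripts were compared among the ages by an exact permutation test over all 369600 arrangements of the libraries. None reached an adjusted p of 0.05, and 2 had an unadjusted p of 0.05 or less, both of Oaz3. MSTRG.13126.7 had an exact p of 0.00539 (adjusted p = 0.0755), and MSTRG.13126.3 had an exact p of 0.0480 (adjusted p = 0.336). Without 3M mouse 2 or without 6M mouse 2, the adjusted p of MSTRG.13126.7 reached 0.05 or less (0.0209 at its lowest). Without 12M mouse 2, that of NM_018745 did so (0.0482).

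Ratios between members need no scaling between libraries and set antizymes, antizyme inhibitors and the other enzymes of synthesis against each other or against Odc1. Oaz3 RNA was 7.80 times Odc1 RNA over the 12 libraries, by the mean of log2 ratios of FPKM. Oaz2 stood at 0.419 times Odc1, the Oaz1 locus at 0.400 times, Azin2 at 0.775 times and Azin1 at 0.130 times. Azin2 RNA was 0.0993 times that of Oaz3, and Azin1 was 0.325 times the Oaz1 locus. The Amd1 locus was 3.9 times Srm.

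The ratio of Oaz3 to Odc1 was 6.87, 6.94, 8.92 and 8.72 in order of age. On the log2 scale the mice had 2.79, 2.80 and 2.74 at 3M, 2.82, 2.74 and 2.82 at 6M, 3.07, 2.87 and 3.53 at 12M and 3.01, 3.12 and 3.24 at 18M. In FPKM the 6 older mice stood above the 6 younger ones. As a ratio of reads, which does not depend on transcript length, the separation was lost, with 3.36 to 3.67 in the younger mice, 3.92, 3.46 and 5.60 at 12M and 3.65, 4.11 and 4.28 at 18M (exact permutation p = 0.212). On FPKM the exact permutation test of any difference among the ages gave p = 0.0592 (adjusted p = 0.287 over 10 ratios). Azin2 to Odc1 was 0.721, 0.728, 0.816 and 0.841 at the 4 ages (exact p = 0.0525, adjusted p = 0.287).

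In both ratios 12M mouse 3 was the highest library, at 3.53 and -0.10 on the log2 scale. Without it, Azin2 to Odc1 passed the threshold (exact p = 0.00312, adjusted p = 0.0312), with 0.765 in place of 0.816 at 12M, and Oaz3 to Odc1 did not (exact p = 0.0134, adjusted p = 0.0669). Of the 10 ratios, 0 reached an adjusted p of 0.05 and 0 an unadjusted p of 0.05 with all libraries. The symbols Oaz1 and Amd1 in 4 of these ratios hold a small part of their loci. Among ratios added after the data were seen, Oaz3 to Oaz2 was 16.9, 17.2, 20.2 and 20.4 in FPKM at the 4 ages (exact p = 0.00494, adjusted p = 0.0790 over all 16 ratios). As a ratio of reads, which does not depend on transcript length, it was 11.7, 12.2, 13.3 and 13.0 and was not tested. The test on FPKM cannot separate a difference in level from a difference in how Oaz3 reads were divided among its transcripts. The Oaz1 locus to Odc1 was 0.396, 0.380, 0.408 and 0.415 (exact p = 0.640).

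**Figure D4:**
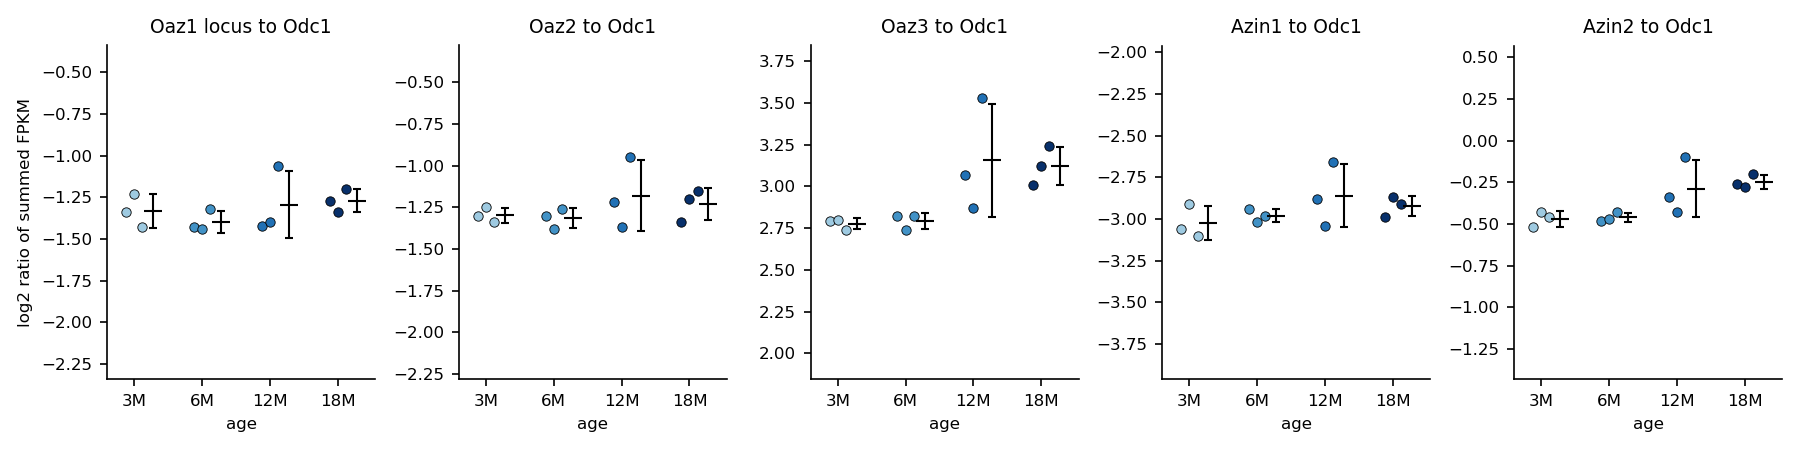
Log2 ratios of summed FPKM to that of Odc1 for the antizymes and antizyme inhibitors, with 1 point per mouse and the mean ± SD of the 3 mice beside the points; each panel spans the same 2 log2 units on its own level. For Oaz3 the 12M and 18M mice (2.87 to 3.53) lie above the 3M and 6M mice (2.74 to 2.82), a separation that is absent from the ratio of reads, and for Azin2 the 18M mice (-0.28 to -0.20) lie above the 3M and 6M mice (-0.52 to -0.43), while the Oaz1 locus, Oaz2 and Azin1 overlap among the ages.

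The remaining genes of polyamine metabolism gave no call. Further synthesis genes (Sms, Amd2, Arg1, Arg2 and Agmat) had 4 of 5 tested for the slope and 0 called, and their median log2 fold change from 3M to 18M was 0.08, beside 0.006 over all features. The highest, at a mean of 14.0 FPKM, was the transcript named Amd2, which lies at the Amd1 locus. Spermine synthase, Sms, had 1.70 FPKM.

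Of the breakdown enzymes (Sat1, Sat2, Smox and Paox), 0 of 4 were called, with a median log2 fold change of 0.03. Smox, spermine oxidase, was the highest at 4.76 FPKM. Among the transporters and uptake genes that passed the filter on low counts (Atp13a2, Atp13a3, Slc18b1, Slc12a8, Slc3a2 and Slc22a3), 0 of 6 were called, with a median of -0.02. Slc3a2, a subunit of amino acid transporters, was the highest at 30.4 FPKM.

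Genes of hypusine, the spermidine-derived residue of the translation factor eIF5A (Eif5a, Eif5a2, Dhps and Dohh), had 0 of 4 called and a median of -0.01. Eif5a stood at 293 FPKM, above Odc1. Of the methionine and methylthioadenosine cycle (Mat1a, Mat2a, Mat2b, Mtap, Mri1, Apip, Enoph1 and Adi1), which makes the donor of the aminopropyl group and recovers its remainder, 0 of 8 were called, with a median of 0.01, and Mat2a was the highest at 31.1 FPKM. At an unadjusted p of 0.05 or less, 1 gene of these 5 lists had a slope, Eif5a2 (-0.0075 log2 units per month, unadjusted p = 0.0426), beside 8.2% of all features with a falling slope. By DESeq2 0 genes of the 5 lists were called in any of the 3 gene tests.

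**Figure D5:**
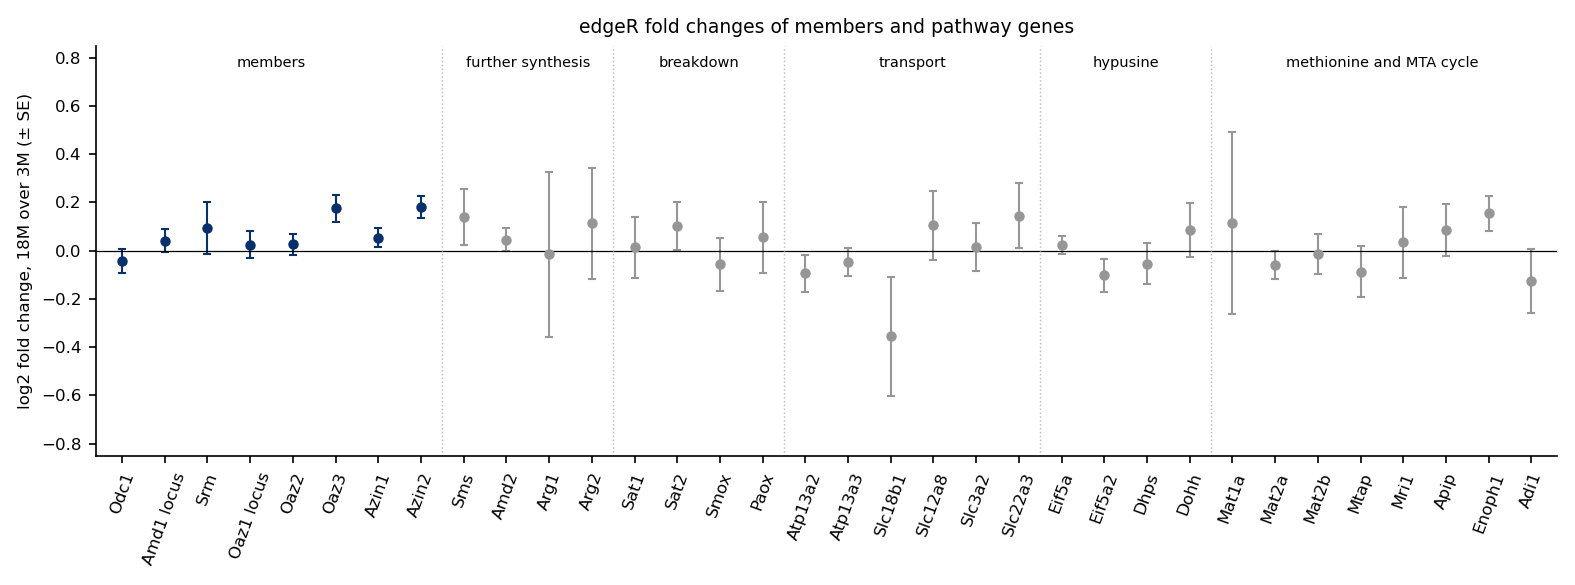
Log2 fold change from 3M to 18M by edgeR with its standard error, for the members (dark, with the loci of Amd1 and Oaz1 summed over their names) and for the pathway genes that passed the filter on low counts (gray), in the lists divided by dotted lines. Oaz3 (0.18 ± 0.06) and Azin2 (0.18 ± 0.05) are the members farthest from 0, and none of the genes shown was called; Amd2 among the further synthesis genes is the transcript counted in the Amd1 locus.

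Across the 12 libraries, the genes whose log2(CPM + 1) was most like that of Oaz3 among 9703 genes were Gtsf1, with a Pearson correlation of 0.99 (0.98 without 12M mouse 3), 2810408A11Rik with 0.97 (0.95) and Smcp, a protein of the sperm mitochondrial capsule, with 0.97 (0.95). Those most like Odc1 were Atp5b, a subunit of ATP synthase, with 0.97 (0.88 without 12M mouse 3), Rnf14 with 0.96 (0.85) and Tsga10 with 0.96 (0.83). The libraries share their depth and scaling across genes, and the values are descriptions of these 12 points.

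Correlations between pairs of members were taken on the same scale. They are not set against the values above, which were picked as the largest among all genes compared. Oaz2 and Oaz3 had a Pearson correlation of 0.70 (Spearman 0.76, 0.70 without 12M mouse 3), and Oaz3 and Azin2 had 0.48 (Spearman 0.59, 0.73 without that library). Odc1 and Oaz3 had -0.78, which rests on 12M mouse 3, since without it the correlation was -0.37.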

How the data were processed

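The authors sequenced rRNA-depleted, unstranded libraries, mapped reads to mm10 with HISAT2 and assembled transcripts with StringTie 1.3.3b; the HISAT2 version is not given in the sources used here. The deposited table holds estimated counts per transcript, rounded up by the authors to whole numbers, and FPKM as deposited; per-library assemblies hold the coverage of each exon. Depth limits the symbols Oaz1 and Amd1, and intervals from counts cover counting error only. Libraries were grouped by the labelled age.

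Counts and FPKM were summed per gene over transcripts of class =, c, j or o, and transcripts of other classes were features of their own. Locus sums add Oaz1-ps to Oaz1 and Amd2 to Amd1, and their tests use sums by gene identifier. EdgeR 4.0.16 (limma 3.58.1, R 4.3.3) quasi-likelihood tests used TMM scaling, filterByExpr and Benjamini-Hochberg adjustment over all features, on the slope on age, any difference among the 4 ages, and 3M against 18M in 6 libraries; transcripts were tested on the slope and on 3M against 18M. The SE given with an edgeR estimate is the size of the estimate divided by the square root of the F statistic of its test. Shares and ratios were compared by two-sided exact permutation tests. With 3 mice against 3 such a test cannot give a p below 0.1, so none was used for 1 pair of ages. Python 3.11.15, numpy 2.4.6, pandas 2.3.3 and matplotlib 3.10.9 did the rest, and the tests were tried on simulated data with seed 20210. Members and lists were chosen with earlier results of these data known. All 8 genes were named, with their transcripts at a mean of 5% or more of their gene or called in a test; of other pathway genes those called, and the one with the highest FPKM in each list. Sms and Eif5a2 were named after their values were seen. Alternatives were DESeq2 1.42.0, other scalings, no filter, transcript classes, a replicate block and each library left out; gene identifier sums and 6 ratios were added after the data were seen. Mice are separate animals; nothing else about batches is labelled. Likeness was computed on log2(CPM + 1) over genes at a mean of 10 CPM or more. Of the transport list, 1 gene is not reported here.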

Additional observations from a re-analysis of the deposited data

Results flagged for a closer look

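A pair of assembled transcripts at these loci has reads but enters none of the sums above, because neither is of class =, c, j or o. MSTRG.14538.1 lies within an intron of Azin2 (chr4:128934672-128942648, 4283 nt) and had a mean of 2.96 FPKM over the 12 libraries, with 661 to 983 reads per library. Its age means were 2.68, 2.91, 3.00 and 3.24 FPKM in order of age, with SDs of 0.0788, 0.0109, 0.385 and 0.324 (n = 3 each), and its log2 fold change from 3M to 18M was 0.27 ± 0.12 (SE, edgeR adjusted p = 0.920).

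MSTRG.8599.1 covers the annotated Oaz1-ps gene of chromosome 17 (chr17:17344808-17346635, 1828 nt) and had a mean of 4.79 FPKM. It had 0 reads in 12M mouse 2 and 472 to 745 in the other 11 libraries. A count of 0 in that library allows up to 3 reads by counting error alone, which does not cover how reads were assigned to loci. The annotated Oaz1-ps matches Oaz1 in 684 of 685 aligned bases (99.9%), so reads from that stretch can hardly be told from Oaz1 reads. MSTRG.14538.1 and MSTRG.8599.1 were picked out because they carry signal outside the sums, with no control samples to set them against. Groups of 3 libraries are too small for a test of single outlying libraries.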

How the results depend on the processing

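Counts of called features depended strongly on the tool. For the gene slope, 43 calls became 559 by DESeq2, 22 with a replicate block, 8 with class = transcripts alone, and 13 to 116 when 1 library was left out (116 without 18M mouse 1, 13 without 18M mouse 3, 17 without 18M mouse 2, 21 to 28 without 3M mouse 1 or 3, 6M mouse 1 or 2, or 12M mouse 1 or 2). For any difference among the ages, 20 calls became 378 by DESeq2 and 15 to 44 with 1 library left out (44 without 18M mouse 1). Between 3M and 18M, 13 genes became 83 by DESeq2, 0 with a replicate block, 21 with all 12 libraries in the fit, 58 with class = alone and 15 to 30 with 1 library left out (27 to 30 without any 1 of the 18M mice).

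For transcript slopes, 6 calls became 3 without a filter, 1075 by DESeq2, 3 with a replicate block and 3 to 8 with 1 library left out (3 without 3M mouse 1, 2 or 3, 6M mouse 2, or 12M mouse 2 or 3). Between 3M and 18M, 59 transcripts became 22 without a filter, 1263 by DESeq2, 0 with a replicate block, 18 with all 12 libraries and 8 to 25 with any 1 library left out. MSTRG.13126.7 was called in 7 of 13 alternatives (adjusted p 5.46e-119 by DESeq2, 0.844 with a replicate block). Transcript shares gave 0 to 1 calls (1 without 3M mouse 2, 6M mouse 2 or 12M mouse 2) and ratios 0 to 1 (1 without 12M mouse 3) with 1 library left out.

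Levels moved with the transcripts counted. With class = alone Oaz3 had 124 FPKM (1301 otherwise) and Azin1 19.6, and with transcripts at 1 FPKM or more Azin1 had 20.8 (21.5 otherwise). For Oaz3, class = alone keeps only NM_016901, which was assigned 2.21% to 13.3% of the reads of the gene. The direction turned for Oaz3 with class = alone (-0.0130 per month; -0.28 from 3M to 18M), for the symbol Amd1 with gene identifier sums (-0.0021 per month; 0.0407), for Oaz1 with the same sums (0.0245) and with 1 library left out (-0.0009 to 0.0099 per month without each, below 0 without 3M mouse 3; -0.1079 to 0.0917 from 3M to 18M, above 0 without 3M mouse 1 or 18M mouse 2), and for Oaz2 without 18M mouse 3 (-0.0018; range to 0.0526); none of these passed a test. The cause was not tested. Of the 448 alternatives for member genes in the 3 gene tests, 2 gave a call, both Azin2 by DESeq2.

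Replicate numbers are shared by the ages but name different mice. Correlations of deviations from the age means were -0.065 to 0.064 between libraries of the same number and -0.085 to 0.080 between others. Over all genes the numbers thus showed no pairing, but such correlations cannot exclude a shared batch that touches few genes. The labels do not say what the numbers stand for, and the block was an alternative only. Limits: 3 mice per age, no strand information, isoform counts assigned by the assembler, and 1 to 83 reads for the symbol Amd1.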
